A study of Mus musculus with 8 samples.

Results

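TRAV14 is a family of T cell receptor alpha (TCRα, TRA) variable genes of the mouse, and its chains were followed here across the thymus, spleen and tumors of 7 mice. Members were the cells without a multiplet mark whose TRA chain carried a V name starting with TRAV14-, TRAV14D- or TRAV14N-. The 14 tables held 107882 cells with a TRA chain, and 13838 of them carried a member. In 12399 cells the complementarity-determining region 3 (CDR3), the loop that meets the peptide, ended in F or W as a complete rearrangement does. The other 1439 cells had a CDR3 without that end and are described apart. Complete chains were seen under 6 member names, TRAV14-1, TRAV14-2_1, TRAV14-3, TRAV14D-1_1, TRAV14D-3-DV8 and TRAV14N-3_1, of 82 TRAV names in all.

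CD8+ T cells came from Pdcd1 fl/fl and Pdcd1 cKO mice, young adults of both sexes on a C57BL/6 background, where the cKO mice carry a floxed Pdcd1 (the gene of PD-1) and a Cre driven by the E8I element of CD8, which is active in CD8 single-positive T cells, after V(D)J recombination. Mice were studied at baseline, with thymus and spleen taken, or with subcutaneous B16-OVA or B16-F10 melanoma, with thymus and tumor taken. Thymic and splenic cells were enriched with a CD8a+ kit and tumor cells with CD8 (TIL) microbeads. The 8 labelled samples are sublibraries that each hold cells of every table. Animal and tissue were read from the names of the deposited tables, and neither genotype nor tumor model is given for a table, so no groups were formed and there were no replicates of a table. Thymus tables came from all 7 mice, spleen tables from mouse-155A and mouse-155C, and tumor tables from mouse-164B and mouse-164C and from mouse-160A, mouse-160B and mouse-160C.

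Each table held 2523 to 20511 cells with a TRA chain, at a median of 1 or 2 TRA transcripts per cell. Barcodes marked as multiplets were left out. They made up 1.48% to 7.60% of thymus tables, 1.08% and 2.39% of the spleen tables and 11.7% to 17.4% of tumor tables. Only receptor chains were measured, so CD8 itself could not be checked. TRAV11 or TRAV11D joined to TRAJ18, the invariant NKT chain, was on 5.78% to 10.9% of TRA cells in thymus tables, on 0.406% and 1.13% in spleen tables and on 0.1999% to 0.508% in tumor tables. TRAV1 joined to TRAJ33, the MAIT chain, was on 1 cell in all, and no cell carried another kind of chain as its TRA chain.

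A TCRα chain forms when a V gene is cut at its recombination signal and joined to 1 of many J genes, with bases trimmed and added at the joint. In the thymus the Tcra locus can recombine again and again on 1 chromosome, and each round uses a V gene farther upstream and a J gene farther downstream. The mouse V region holds near copies of whole stretches, whose genes carry D and N in their names, and TRAV14 is present in each stretch.

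On chromosome 14 (GRCm39, GENCODE annotation, plus strand) 9 TRAV14 genes were annotated. In order along the chromosome they were TRAV14D-1, TRAV14D-2, TRAV14D-3-DV8, TRAV14N-1, TRAV14N-2, TRAV14N-3, TRAV14-1, TRAV14-2 and TRAV14-3. TRAV14D-1 lay 1299 kb upstream of the first TRAJ gene, TRAJ61, and TRAV14-3 lay 391 kb upstream. The chains covered a median of 80 bases of the V gene, so names rested on the end of the V exon. The last 81 bases of that exon are shown for each name, because they are what tells the members apart. Capitals mark the bases that differ from the most common base of the 9 genes.
TRAV14-3, chr14:54001071-54001151: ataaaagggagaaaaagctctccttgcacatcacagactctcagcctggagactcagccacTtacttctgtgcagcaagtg
TRAV14-2_1, chr14:53878602-53878682: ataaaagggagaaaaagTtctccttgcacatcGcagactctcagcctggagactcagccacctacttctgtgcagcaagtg
TRAV14-1, chr14:53791935-53792015: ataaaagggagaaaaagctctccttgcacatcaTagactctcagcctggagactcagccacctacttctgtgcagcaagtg
TRAV14N-3_1, chr14:53607952-53608032: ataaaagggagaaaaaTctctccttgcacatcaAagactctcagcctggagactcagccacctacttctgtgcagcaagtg
TRAV14D-3-DV8, chr14:53316422-53316502: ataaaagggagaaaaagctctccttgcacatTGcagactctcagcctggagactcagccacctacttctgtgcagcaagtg
TRAV14D-1_1, chr14:53093543-53093623: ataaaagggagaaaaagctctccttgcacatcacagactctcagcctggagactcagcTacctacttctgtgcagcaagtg

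TRAV14D-1, TRAV14D-2, TRAV14N-1 and TRAV14N-2 were identical over these bases, so chains named TRAV14D-1_1 could come from any of these 4 genes. The match rests on sequence identity, since the V(D)J reference behind the names was not used here. The other pairs differed at 2 to 4 positions. All 9 genes ended in the same 13 bases, which open the CDR3. Of the annotated member chains, 97.3% matched their V gene at every aligned base. Among 132 clonotypes (a TRA chain and its paired TRB chain) with 2 or more cells in a table, 0 had cells under 2 member names.

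TRAV14 chains were frequent in every table. Counted as distinct chains (V gene, J gene and CDR3, each once per table), the family made up 11.98% to 13.8% of thymus repertoires (median 12.4%, n = 7 tables), 12.02% and 12.9% of spleen repertoires and 11.7% to 13.5% of tumor repertoires (median 12.4%, n = 5). Among 20 TRAV families it ranked the second in the thymus by this count, after TRAV12 at a median of 14.5%. TRAV9 followed at 12.3%.

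Of the names, TRAV14D-1_1 was the highest in all 7 thymus tables, at 3.83% to 4.16% of distinct chains. If all 4 genes contributed, this would be a median of 1.00% per gene. TRAV14-2_1 followed at a median of 2.08%, TRAV14N-3_1 at 1.94%, TRAV14-1 at 1.82% and TRAV14-3 at 1.60%. The ranges of these neighbours overlapped, and the order held in 4 or 5 of 7 tables for each adjacent pair. TRAV14D-3-DV8, a gene that can also join the TCRδ chain, was the lowest at 1.05% and was below TRAV14-3 in 7 of 7 tables.

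Counted as cells, the family share in thymus tables was lowest in mouse-160A at 10.8% (95% interval 9.76 to 11.99), had a median of 12.003% and was highest in mouse-155A at 12.3% (11.2 to 13.4). In the spleen it was 12.3% (11.5 to 13.2) in mouse-155A and 13.1% (11.9 to 14.5) in mouse-155C. In tumors it was 22.3% (20.7 to 23.9) in mouse-160A, 15.8% (14.9 to 16.7) in mouse-160C, 12.5% (11.9 to 13.03) in mouse-160B, 11.5% (11.03 to 11.9) in mouse-164C and 10.1% (9.52 to 10.8) in mouse-164B. These intervals, like all below, are exact and cover counting error only. Tumors of mouse-160A and mouse-160C stood above all thymus tables by cells, and by distinct chains their shares of 12.3% and 13.5% lay within the thymus range. The mouse-160B tumor lay just above the highest thymus table by cells, with overlapping intervals. Without invariant NKT chains, the median thymus share by cells was 13.2%.

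A single name carried the excess in each of the mouse-160A and mouse-160C tumors. TRAV14-3 was on 500 of 2702 cells in the mouse-160A tumor, 18.5% (17.1 to 20.02). It was on 2.12% of cells in mouse-164B, 1.51% in mouse-160B and 1.16% in both mouse-164C and mouse-160C. By distinct chains it held 1.58% of the mouse-160A tumor. TRAV14-1 was on 664 of 6472 cells in the mouse-160C tumor, 10.3% (9.53 to 11.02). It was on 1.80% of cells in mouse-160B, 1.59% in mouse-164C, 1.40% in mouse-164B and 0.814% in mouse-160A. By distinct chains it held 2.02% of that tumor. In each case 1 tumor was high and the other 4 lay close together.

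**Figure D1:**
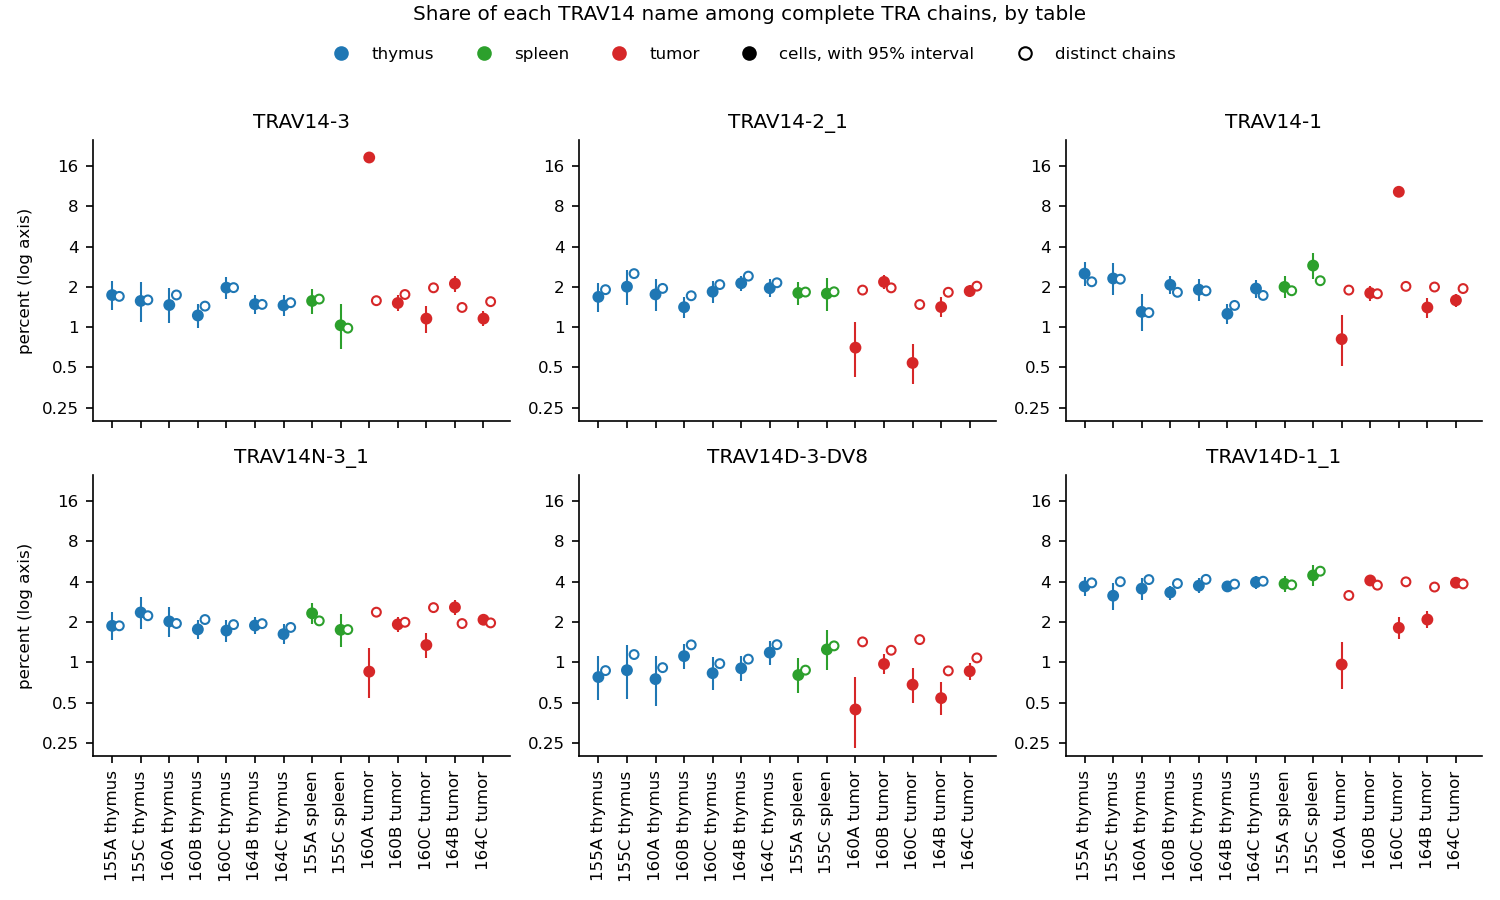
Share (%, log axis) of each TRAV14 name among complete TRA chains in the 14 tables, as cells (filled points with exact 95% intervals) and as distinct chains (open points), coloured by tissue. TRAV14-3 in the mouse-160A tumor (18.5% of cells) and TRAV14-1 in the mouse-160C tumor (10.3% of cells) stand far above their distinct-chain shares of 1.58% and 2.02%.

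Each second tissue was then set beside the thymus of the same mouse. TRAV14-3 was 12.6-fold higher in the tumor of mouse-160A by cells and TRAV14-1 was 5.38-fold higher in that of mouse-160C. Among all TRAV names with at least 20 thymus cells, 12.5% were past 2-fold higher in mouse-160A and 11.1% in mouse-160C. In the same tumors 3 and 2 member names were past 2-fold lower, with TRAV14D-1_1 and TRAV14-2_1 in both lists and TRAV14N-3_1 in the first. TRAV14D-1_1 fell from 3.55% to 0.962% of cells in mouse-160A. The background there was high, since 67.5% of TRAV names in mouse-160A and 37% in mouse-160C were past 2-fold lower. In the other 5 mice 0 members passed 2-fold in either direction, against a background of 0%, 0%, 3.57%, 5.08% and 3.51% higher and 6.67%, 5.88%, 7.14%, 18.6% and 7.02% lower in mouse-155A, mouse-155C, mouse-160B, mouse-164B and mouse-164C. By distinct chains 0 of 42 member comparisons passed 2-fold, with a range of 0.615-fold to 1.56-fold, while 1 of 345 comparisons over all names passed upward and 14 of 345 downward.

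Across the 14 tables, which share their 8 sublibraries, the names with the most similar cell shares were ranked by Spearman's rho as a description. For TRAV14-1 these were TRAV8D-2 (0.47), TRAV9D-4 (0.43) and TRAV6-5 (0.41). For TRAV14-2_1 they were TRAV14D-1_1 (0.62), TRAV7D-3 (0.62) and TRAV5-4 (0.61), and for TRAV14-3 they were TRAV3-3 (0.51), TRAV12-1 (0.48) and TRAV16N (0.41). TRAV14D-1_1 was nearest to TRAV16 (0.77), TRAV7-3 (0.75) and TRAV7D-3 (0.73), TRAV14D-3-DV8 to TRAV16 (0.71), TRAV14D-1_1 (0.71) and TRAV7-3 (0.63), and TRAV14N-3_1 to TRAV10 (0.71), TRAV3-3 (0.63) and TRAV7-4 (0.62). The values of TRAV14-3 and TRAV14-1, the names with a dominant tumor chain, were the lowest.

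The J genes joined to TRAV14 differed with the position of the V gene, and the 3 TRAV14 names nearest to the TRAJ genes had the highest medians of the family. TRAJ genes are numbered downward from TRAJ61, next to the V genes, to TRAJ1, next to the constant gene TRAC. Over distinct thymus chains the median TRAJ number was 48 for TRAV14-3 (quartiles 40 and 52), 37 for TRAV14-2_1 (27 and 48), 33 for TRAV14-1 (23 and 45), 23 for TRAV14N-3_1 (15 and 31), 22 for TRAV14D-3-DV8 (12 and 30) and 22 for TRAV14D-1_1 (13 and 32). All TRA chains together had a median of 27 (18 and 40). The proximal TRAV14-3 had 75.1% of its chains at TRAJ40 or above and 1.58% at TRAJ20 or below. For TRAV14D-3-DV8, far upstream, the same shares were 11.1% and 45.7%.

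This order held between animals. TRAV14-3 table medians ran from 44 to 49 and lay above every TRAV14-2_1 median, which ran from 34 to 41. TRAV14-2_1 was above TRAV14-1 in 6 of 7 mice, with overlapping ranges, and TRAV14-1 was above TRAV14D-1_1 in 7 of 7. The medians of TRAV14N-3_1, TRAV14D-3-DV8 and TRAV14D-1_1 lay in ranges of 23 to 30, 17 to 30 and 22 to 23 and overlapped. In spleen and tumor the medians were 48 and 49 for TRAV14-3, 40 and 37 for TRAV14-2_1, 31 and 32 for TRAV14-1, 22 and 23 for TRAV14N-3_1, 18 and 22 for TRAV14D-3-DV8 and 23 and 23 for TRAV14D-1_1. Among 37 TRAV names with at least 300 distinct thymus chains, TRAV14-3 had the second highest median, after TRAV19 at 49, which lies closer to the TRAJ genes at 309 kb. Position did not order all names, since TRAV21-DV12 at 278 kb had a median of 32, and TRAV15-1-DV6-1 at 595 kb had a median of 22 where TRAV14-1 at 600 kb had 33.

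**Figure D2:**
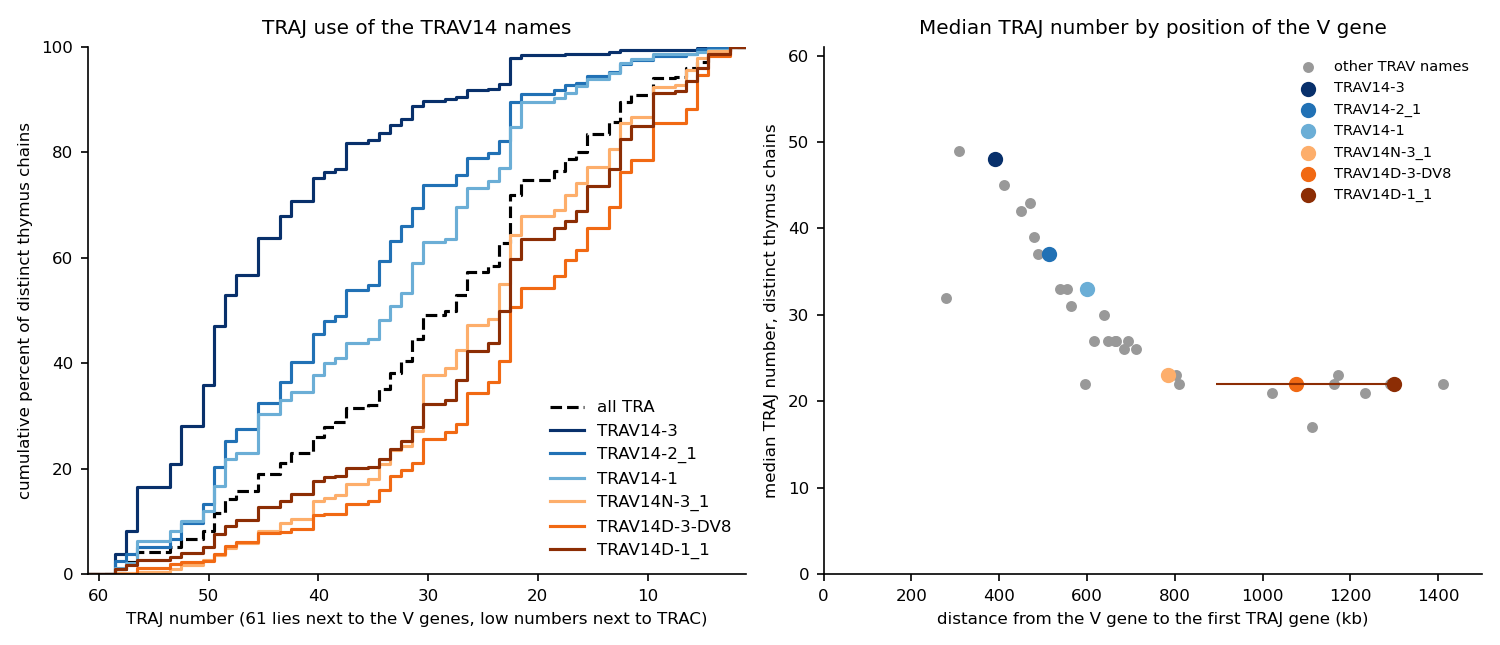
Left, cumulative share (%) of distinct thymus chains from TRAJ61 down to TRAJ1 for each TRAV14 name and for all TRA chains (dashed). Right, median TRAJ number against the distance (kb) of the V gene from the first TRAJ gene for 37 TRAV names, with the line marking the span of the 4 genes that match TRAV14D-1_1; TRAV14-3 at 391 kb has a median of 48, and TRAV14D-1_1, whose matching genes lie between 895 and 1299 kb, a median of 22.

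Single TRAJ genes repeated this pattern in part. The 3 most frequent with TRAV14-3 in the thymus were TRAJ49 (11.2% of distinct chains), TRAJ56 (8.48%) and TRAJ50 (7.89%). With TRAV14-2_1 they were TRAJ22 (7.35%), TRAJ49 (7.05%) and TRAJ40 (5.25%), and with TRAV14-1 TRAJ22 (7.82%), TRAJ45 (7.45%) and TRAJ27 (6.00%). The upstream names had no gene above TRAJ30 among their 3 most frequent. These were TRAJ30 (10.5%), TRAJ22 (9.40%) and TRAJ23 (6.48%) with TRAV14N-3_1. With TRAV14D-3-DV8 they were TRAJ22 (10.3%), TRAJ9 (6.96%) and TRAJ12 (6.69%), and with TRAV14D-1_1 TRAJ22 (9.79%), TRAJ23 (6.21%) and TRAJ9 (6.21%). TRAJ22 was on every list but that of TRAV14-3, and was the most frequent over all TRA chains, at 9.05%.

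The CDR3 of the family was shorter by a fraction of a residue. Distinct thymus chains averaged 13.6 residues (SD 1.36, 3957 chains) against 13.8 (SD 1.78, 27715 chains) for other TRAV names, and the table means did not overlap, at 13.5 to 13.6 and 13.8 to 13.9. In tumors the values were 13.5 and 13.7, and the table means overlapped. TRAV14-3 was the longest member at 14.02 residues in the thymus. By alignment to the V end and the J gene, thymus chains held a median of 3 bases that matched neither, and 13.3% held none.

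TRB partners were counted over distinct clonotypes. In the thymus the family was joined most often with TRBV13-2 (11.01%, 95% interval 9.92 to 12.2), TRBV12-1 (9.30%, 8.29 to 10.4) and TRBV3 (8.91%, 7.92 to 9.98), where other TRAV names had 13.2%, 7.22% and 6.12%. TRBV3 was higher with TRAV14 in 7 of 7 thymus tables and TRBV12-2 in 6 of 7 (6.51% and 4.29%), while TRBV13-2 was lower in 7 of 7 and TRBV29 in 6 of 7 (4.96% and 7.39%). In tumors TRBV13-2 and TRBV12-1 also led, followed by TRBV16 (8.93%). The direction for TRBV13-2 was reversed there, since it was higher with TRAV14 in 5 of 5 tumors (12.2% and 10.2%). TRBV3 (7.36% and 6.96%, higher in 3 of 5) and TRBV12-1 (9.04% and 9.07%, higher in 2 of 5) were close to the other names. TRBV12-2 stayed higher in 4 of 5 tumors (6.94% and 5.61%), and TRBV29 was higher in 0 of 5 (6.79% and 8.03%). Invariant NKT chains are among the other TRAV names, and their share differs between thymus and tumor as given above. The TRB comparison was not repeated without them, so their part in these differences was not tested.

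Between the names, TRBV13-2 led with TRAV14-1 (12.3%), TRAV14-2_1 (11.1%), TRAV14D-1_1 (11.3%) and TRAV14D-3-DV8 (12.2%) in the thymus. TRBV12-1 led with TRAV14-3 (12.2%) and with TRAV14N-3_1 (11.8%). The partners next in order were TRBV12-1 (9.74%) and TRBV13-3 (8.31%) for TRAV14-1, TRBV3 (10.3%) and TRBV12-1 (8.24%) for TRAV14-2_1, and TRBV12-2 (11.9%) and TRBV3 (9.59%) for TRAV14-3. For TRAV14D-1_1 they were TRBV3 (8.14%) and TRBV12-1 (7.95%), for TRAV14D-3-DV8 TRBV13-1 and TRBV16 (both 8.89%), and for TRAV14N-3_1 TRBV3 (10.6%) and TRBV13-2 (10.4%). TRAV14-3 had the highest TRBV12-2 share, where other TRAV names had 4.29%.

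In the thymus nearly every TRAV14 clonotype was a single cell. Single cells held 97.8% to 100% of the paired TRAV14 cells of a thymus table, 94.7% and 100% in the spleen and 21.3% to 86.9% in a tumor. Of the clonotypes of 10 or more cells over all TRAV names, TRAV14 had 21 of 158 in the 5 tumors, 0 of 10 in the thymus tables and 0 of 1 in the spleen tables. Of tumor clonotypes of any size TRAV14 had 2621 and other TRAV names 18812, so its part of the large ones was near its part of all. TRAV14-2_1, TRAV14-3 and TRAV14N-3_1 had 5 large ones each, of 376, 378 and 454 tumor clonotypes. TRAV14-1 had 3 of 385 and TRAV14D-1_1 had 3 of 803. TRAV14D-3-DV8 had 0 of 225, its largest holding 9 cells. Those of TRAV14-3 in the mouse-160A tumor, of 206, 17, 12 and 11 cells, shared 1 TRA chain with TRAJ52 and differed in the TRB chain. They are thus not separate TRA chains. Such clonotypes held 49.0% of the paired TRAV14-1 tumor cells and 43.1% of those of TRAV14-3, against 13.95% for TRAV14D-1_1.

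The TRA and TRB CDR3 of the 6 largest are shown because they are the receptors with the most TRAV14 cells, and the first and second are those of the mouse-160C and mouse-160A tumors, where TRAV14 cells were most frequent. Each is the most frequent nucleotide form of its clonotype among annotated cells. Capitals in the TRA lines mark bases that matched neither the V end nor the J gene, and the TRB lines carry no marks.
mouse-160C tumor, TRAV14-1 TRAJ21: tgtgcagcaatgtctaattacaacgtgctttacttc
mouse-160C tumor, TRBV13-3 TRBJ2-7: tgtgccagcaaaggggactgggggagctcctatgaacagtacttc
mouse-160A tumor, TRAV14-3 TRAJ52: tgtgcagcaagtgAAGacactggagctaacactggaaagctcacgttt
mouse-160A tumor, TRBV23 TRBJ1-4: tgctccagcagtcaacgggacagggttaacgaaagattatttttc
mouse-164C tumor, TRAV14D-1_1 TRAJ30: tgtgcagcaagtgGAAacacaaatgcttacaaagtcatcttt
mouse-164C tumor, TRBV13-1 TRBJ1-4: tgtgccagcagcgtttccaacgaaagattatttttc
mouse-164B tumor, TRAV14-3 TRAJ56: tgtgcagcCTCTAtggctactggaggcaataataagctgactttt
mouse-164B tumor, TRBV13-1 TRBJ2-1: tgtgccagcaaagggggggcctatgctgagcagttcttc
mouse-164B tumor, TRAV14N-3_1 TRAJ30: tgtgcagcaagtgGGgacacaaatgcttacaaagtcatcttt
mouse-164B tumor, TRBV4 TRBJ2-3: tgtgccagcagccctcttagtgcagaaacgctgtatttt
mouse-160B tumor, TRAV14D-1_1 TRAJ30: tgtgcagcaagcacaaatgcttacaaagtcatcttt
mouse-160B tumor, TRBV12-1 TRBJ2-3: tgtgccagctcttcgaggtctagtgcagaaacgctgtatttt

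The largest, in the mouse-160C tumor, held 356 of 3577 paired cells, 9.95% (8.99 to 10.98), and 58.5% of the paired TRAV14 cells. In the mouse-160A tumor the TRAV14-3 clonotype held 206 of 1771 paired cells, 11.6% (10.2 to 13.2), and 57.1% of the paired TRAV14 cells. The other 4 were smaller, with 78 cells in mouse-164C, 67 and 49 in mouse-164B and 49 in mouse-160B, which were 0.605%, 1.16%, 0.849% and 0.610% of paired cells. No base outside the V end and the J gene was needed for the TRA chain of the mouse-160C tumor or of the mouse-160B tumor.

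Further leading clonotypes of a name were TRAV14-2_1 with TRAJ32 and TRBV13-1 (27 cells, mouse-160B), TRAV14-2_1 with TRAJ30 and TRBV16 (27 cells, mouse-164B), TRAV14N-3_1 with TRAJ6 and TRBV13-1 (26 cells, mouse-164C), TRAV14-1 with TRAJ27 and TRBV1 (16 cells, mouse-164B), TRAV14N-3_1 with TRAJ45 and TRBV12-1 (11 cells, mouse-160C) and TRAV14-2_1 with TRAJ40 and TRBV12-1 (10 cells, mouse-164C). TRAJ30 was in 4 of these 12 leading clonotypes, under 3 member names and in 3 tumors, each with another TRBV gene. It is a frequent J gene, second after TRAJ22 at 5.28% of distinct TRAV14 chains and 4.93% of all TRA chains in tumors.

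**Figure D3:**
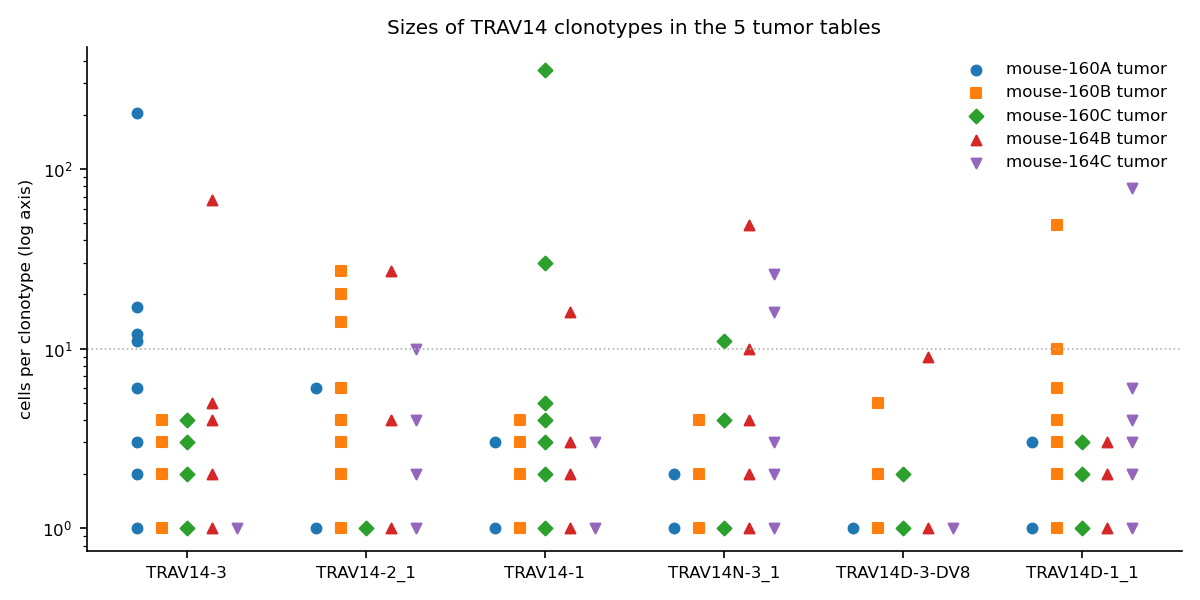
Cells per TRAV14 clonotype (log axis) in the 5 tumor tables by member name, where a point stands for the clonotypes of that size in a table and the dotted line marks 10 cells. The TRAV14-1 clonotype of 356 cells (mouse-160C) and the TRAV14-3 clonotype of 206 cells (mouse-160A) stand above the next largest, at 78 cells.

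The dominant TRA chains were also read in cells with a TRB chain other than their main partner. Whether such cells truly held both chains was not tested. The TRAV14-3 TRAJ52 chain was on 483 cells of the mouse-160A tumor, 96.6% of its TRAV14-3 cells, and 309 of them had a TRB chain. Of these, 206 carried TRBV23, 17 a TRBV13-1 chain, 12 a TRBV13-2 chain and 11 a TRBV16 chain, with 54 distinct TRB chains in all. That TRBV13-2 chain was on 260 cells of the table and was joined in 225 of them with a TRAV16N chain. The TRAV14-1 TRAJ21 chain was on 572 cells of the mouse-160C tumor, 86.1% of its TRAV14-1 cells. Among its 410 paired cells the second TRB partner had 5 cells.

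Without its dominant chain, TRAV14-3 was on 0.766% (0.447 to 1.22) of the cells left in the mouse-160A tumor, and the family on 5.36%. For TRAV14-1 in the mouse-160C tumor the share was 1.56% (1.26 to 1.91) and for the family 7.63%. These values leave the large clonotypes of other TRAV names in the total. When all clonotypes of 10 or more cells were left out alike, TRAV14 held 17.7% of the remaining paired cells in the mouse-160A tumor and 15.3% in the mouse-160C tumor, against 10.4% to 12.6% in thymus tables. This cut kept cells in which a dominant chain was paired with a TRB chain in a clonotype of under 10 cells. Both tumor values thus still include the dominant chains and do not give the family share apart from them.

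The same chains were read in other tables. The TRAV14-3 TRAJ52 chain was on 131 cells of the other 13 tables, at 1 to 18 cells each, with 1 cell in the thymus of its own mouse. Of these cells, 98.5% had 1 TRA transcript, against 27.1% in the mouse-160A tumor, 13 had a TRB chain and 0 had the main TRB chain. The TRAV14-1 TRAJ21 chain was on 243 cells of the other 13 tables, 98.4% of them with 1 transcript, and 12 were in the thymus of its own mouse. The main TRB chain was on 4 of these cells.

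In this method a cell is known by its first-round well, which gives the table, and by its wells of the later rounds and its sublibrary. Of the 131 cells, 53 (40.5%) shared the later-round barcodes and the sublibrary with a cell of that chain in the mouse-160A tumor, where 0.771% of all cells of the other tables did. For the TRAV14-1 TRAJ21 chain it was 95 of 243 (39.1%) against 0.942%, and for the TRAV14D-1_1 TRAJ30 chain of the mouse-164C tumor 16 of 35 (45.7%) against 0.181%. Both chains of the mouse-164B tumor had lower shares. For TRAV14N-3_1 TRAJ30 it was 10 of 116 cells (8.62%) against 0.147%, with 57 of the 116 in the mouse-164C tumor, and for TRAV14-3 TRAJ56 it was 2 of 31 (6.45%) against 0.162%, with 16 of the 31 in the thymus of its own mouse. Over the whole family 1032 cells (8.32%) had such a match in another table with at least as many transcripts, and 6.74% of cells with other TRAV names did.

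These matches bear on chains found in several animals. Of 5942 distinct TRAV14 chains, 1262 (21.2%) were in 2 or more mice and 17 in all 7, and for other TRAV names the share was 20.3%. The dominant TRAJ21 and TRAJ52 chains were among those in all 7. When matching cells were left out, 935 of 5864 (15.9%) remained in 2 or more mice and 13 in all 7. For other names the share in 2 or more mice was 16.1%. With at least 2 transcripts the shares were 11.7% and 11.6%, and 4 TRAV14 chains were in all 7. In the share found in 2 or more mice, the family was thus close to the other names under each setting. Sharing was more frequent for simple joints, since 30.7% of nucleotide chains without an unmatched base were in 2 or more mice and 6.03% of those with 6 or more such bases.

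One CDR3 with TRAJ22 was found under all 6 member names, in all 14 tables, on 416 cells and with 258 TRB chains. Its main nucleotide form, in 82.5% of annotated chains, joined the whole V end to TRAJ22 without any added base, and it is shown because the identical V ends of the 9 genes allow it from any of them.
TRAV14 TRAJ22: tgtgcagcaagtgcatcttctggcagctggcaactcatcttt

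Clonotypes found in both tissues of 1 mouse were few. There were 11 TRAV14 clonotypes of this kind. Mouse-164B had 6 of its 68 such clonotypes over all TRAV names, mouse-160B 2 of 47, mouse-160A 2 of 18 and mouse-155C 1 of 14. The 2 of mouse-160A were 0.897% of its thymus and 2.13% of its tumor TRAV14 clonotypes, where all TRAV names had 0.904% and 3.96%. The 6 of mouse-164B were 0.748% and 1.71%, where all names had 0.984% and 2.22%. The 2 of mouse-160B were 0.364% and 0.254%, where all names had 0.907% and 0.714%. In mouse-155C the clonotype was 0.699% of thymus and 0.606% of spleen TRAV14 clonotypes, where all names had 1.26% and 1.10%. In mouse-155A, mouse-160C and mouse-164C 0 were found, of 2, 5 and 10 over all names. As a pair, the dominant clonotypes of the mouse-160C and mouse-160A tumors were on 0 thymus cells of their own mouse.

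The mouse-164B clonotype of TRAV14-3 with TRAJ56 and TRBV13-1, shown above, had 67 tumor cells and 9 thymus cells and was the single one with 2 or more cells in each tissue. It was also on 1 cell of another mouse. Of the others, TRAV14D-1_1 with TRAJ30 and TRBV12-1 had 49 tumor cells and 1 thymus cell in mouse-160B, and TRAV14-1 with TRAJ27 and TRBV1 had 16 and 1 in mouse-164B. TRAV14-3 with TRAJ49 and TRBV20 had 5 tumor cells and 1 thymus cell in mouse-164B.

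The remaining 7 had 1 or 2 cells in each tissue. They were TRAV14-2_1 with TRAJ45 and TRBV12-2 in mouse-155C, TRAV14-2_1 with TRAJ18 and TRBV13-3 and TRAV14N-3_1 with TRAJ28 and TRBV13-1 in mouse-160A, and TRAV14-1 with TRAJ26 and TRBV29 in mouse-160B. In mouse-164B they were TRAV14-2_1 with TRAJ37 and TRBV12-1, TRAV14D-1_1 with TRAJ27 and TRBV5 and TRAV14N-3_1 with TRAJ27 and TRBV12-2. Later-round barcodes were shared between the tissues by 0 of the 11. By contrast, 27 paired TRAV14 clonotypes were in several mice, and 16 of them had cells with the same later-round barcodes in different mice.

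Cells whose TRAV14 CDR3 did not end in F or W held a single recurrent sequence. Of the 1439, 1351 (93.9%) had the same CDR3 of 11 residues, named TRAJ28. Such unfinished chains were 10.4% of TRAV14 cells and 5.02% of cells with other TRAV names. The CDR3 is shown with the first 7 bases after the V end in capitals.
recurrent CDR3: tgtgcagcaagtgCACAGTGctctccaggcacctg
Those capitals are the heptamer of a recombination signal, which is cut away when V joins J. The germline DNA after the V exon of 3 members is shown for comparison, with the heptamer and the nonamer in capitals and a spacer of 23 bases between them.
TRAV14-1: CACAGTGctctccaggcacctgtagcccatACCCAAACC
TRAV14D-1: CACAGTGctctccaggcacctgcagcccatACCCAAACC
TRAV14N-3: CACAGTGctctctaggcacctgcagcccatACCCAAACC

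Of 1148 annotated chains with this CDR3, 99.4% continued from the V end for at least 30 bases of germline sequence, with a median of 139 bases, which was also the median length left in the chain. These chains thus ran from the V exon into the unjoined germline flank, and are called unrearranged here. TRAJ28 was named from 8 matching bases, CCAGGCAC, and these letters lie just after the heptamer in 6 of the 9 genes. They are not there in TRAV14D-2, TRAV14N-2 and TRAV14N-3. Only 1 of the 1351 cells had a constant gene called for the chain, against 85.6% of complete TRAV14 chains. The chain had 1 transcript in 95.9% of cells, against 48.6%.

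The germline runs were compared with the flanks of the 9 genes. All 458 annotated chains named TRAV14-1 matched the TRAV14-1 flank best. For TRAV14D-1_1, 507 of 525 matched TRAV14D-1 and TRAV14N-1 equally and best. The other genes with the same V end, TRAV14D-2 and TRAV14N-2, lack the letters named TRAJ28, so choosing chains by this CDR3 left them out, and the match does not separate them. Pooled over all tables, unrearranged chains made up 19.3% (17.9 to 20.8) of all cells named TRAV14-1, 14.5% (13.5 to 15.7) of TRAV14D-1_1, 6.78% (5.69 to 8.00) of TRAV14-2_1, 4.79% (3.51 to 6.35) of TRAV14D-3-DV8 and 0.607% (0.314 to 1.06) of TRAV14-3. These shares mix tissues. Their totals include the dominant tumor chains, on 572 of 2900 TRAV14-1 cells and 483 of 1976 TRAV14-3 cells. TRAV14N-3_1 had 0 of 1966 cells, but its flank lacks the letters named TRAJ28, so this count sets no limit on its unrearranged chains. TRAV14-3 has those letters, so among the genes where the call could be made it was the lowest.

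Tissues differed in this share. Unrearranged TRAV14 was on 1.61% (1.35 to 1.90) of TRA cells in the lowest thymus table, mouse-160B, had a median of 1.91% and was on 3.01% (2.38 to 3.76) in the highest, mouse-155C. Spleen tables had 1.59% (1.29 to 1.94) in mouse-155A and 1.99% (1.52 to 2.55) in mouse-155C. Tumor tables had 0.668% (0.490 to 0.890) in mouse-160C, 0.533% (0.397 to 0.6999) in mouse-164B, 0.506% (0.395 to 0.638) in mouse-160B, 0.428% (0.221 to 0.746) in mouse-160A and 0.424% (0.340 to 0.523) in mouse-164C. Every tumor interval lay below every thymus and spleen interval. The thymus was 2.85-fold to 5.30-fold above the tumor of the same mouse and 1.15-fold and 1.51-fold above the spleen, where the intervals overlapped.

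**Figure D4:**
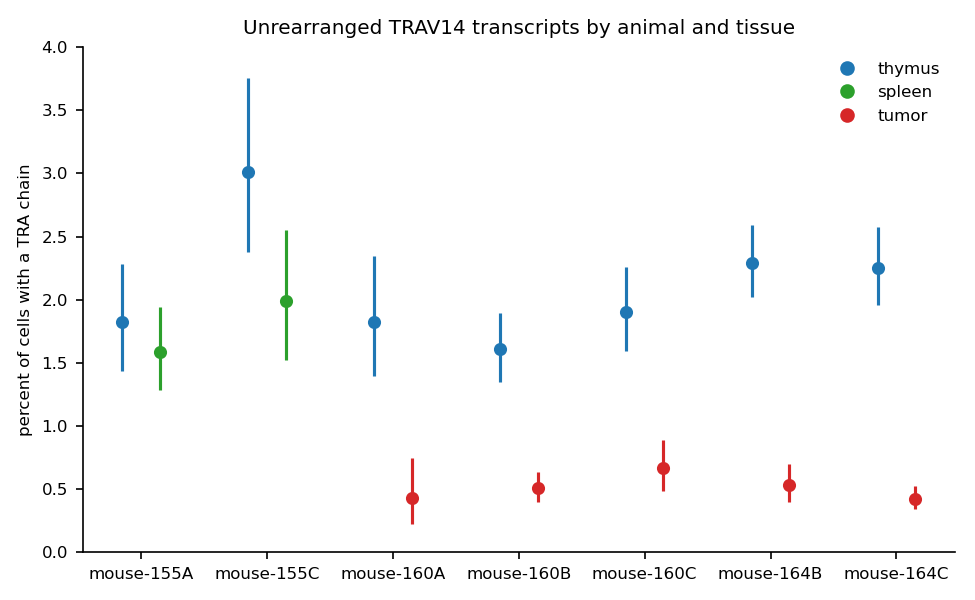
Share (%) of cells with a TRA chain whose chain was unrearranged TRAV14, for the thymus and the second tissue of each mouse with exact 95% intervals of counting error. The 5 tumor tables sit between 0.424% and 0.668%, and the 9 thymus and spleen tables between 1.59% and 3.01%.

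Transcript depth overlapped between these tissues. Cells with 1 TRA transcript made up 48.8% to 72.1% of thymus tables and 45.1% to 59.2% of tumor tables. Among TRAV14 cells with 1 transcript, unrearranged chains were 19.2% to 35.5% in the thymus, 18.1% and 19.5% in the spleen and 5.41% to 9.74% in tumors. The enrichment kit and the multiplet share differed between thymus and tumor as well, and their part was not tested. Pooled over all tables, a TRB chain was present in 61.8% of cells with the unrearranged chain and in 60.2% of cells with a complete TRAV14 chain. These pooled shares mix tissues, and their closeness is not a result for any tissue alone. For the unrearranged chain the share with a TRB chain was 59.2% to 74.7% in thymus tables. It was 50% and 43.3% in spleen tables and 16.7% (mouse-160A, of 12 cells) to 60.9% (mouse-164C) in tumor tables. In another 869 cells a complete TRA chain came first and the unrearranged chain second.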

How the data were processed

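The Parse Evercode TCR method marks each cell by well barcodes of 3 rounds and a sublibrary. The authors assembled chains and called clonotypes with the Parse TCR pipeline, with version and V(D)J reference not given in the sources used here. Per the submitters' processing notes the build was GRCm39. The deposited barcode tables give the transcript count of each chain, the deposited clonotype tables the count of cells, and the deposited annotation tables nucleotide CDR3s and the percent identity to the V gene. Annotation was held in part for mouse-160B thymus (92.6% of barcodes), mouse-164B thymus (40.5%) and mouse-164C tumor (29.9%), and nucleotide results rest on what was held. Checked on the files, 55460 of 55460 clonotype rows equalled a tally of unmarked paired barcodes. Doublets were treated as the pipeline marked them, and 0 full barcodes occurred in 2 tables.

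Shares were computed per table in Python 3.11.15 (pandas 2.3.3, NumPy 2.4.6) with exact Clopper-Pearson intervals (95%, SciPy 1.17.1) that cover counting error only, and each second tissue was set beside the thymus of the same mouse without a test. No test between groups was run, since the labels form none and cells of 1 table share their source. Dixon's ratio for single tables is given in the closing section. A clonotype was a TRAV14 name with the amino acid CDR3s of both chains. A trailing digit of a V name was ignored in counting. Germline sequence came from GRCm39 with the GENCODE annotation, and figures were drawn with matplotlib 3.10.9. Intervals and the splitting of joints were tested on simulated data.

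Members and lists were chosen with earlier results of these data known. By rule the text names every TRAV14 name, its 3 nearest TRAV names (median share at least 1%), its 3 leading TRAJ and TRBV genes, its leading clonotype of 10 or more cells in a spleen or tumor table and each clonotype in both tissues of a mouse. Alternatives were multiplets kept, paired cells, at least 2 transcripts, distinct chains, transcripts, any CDR3 end, second chains, chains of 1 mouse and each sublibrary left out.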

Additional observations from a re-analysis of the deposited data

Results flagged for a closer look

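Dixon's ratio at its 95% critical value was computed for 30 sets of 5 or 7 tables, the cell and distinct-chain shares of the family and of each name and the unrearranged share in thymus and tumor tables. It picked out 2 sets, and chance alone picks out about 1 in 20. TRAV14-1 in the mouse-160C tumor stood at 10.3% of cells, where the other 4 tumors lay between 0.814% and 1.80%. TRAV14-3 in the mouse-160A tumor stood at 18.5% of cells, where the other 4 lay between 1.16% and 2.12%. By distinct chains neither tumor was picked out.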

How the results depend on the processing

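Over 17 results, 76 of 115 values under another setting (sublibraries left out not counted) stayed within the spread between tables (medians), the counting interval (a single table) or 1.5 times (counts), and 39 moved further. The median family share of thymus cells, 12.003%, became 12.9% with any CDR3 end, 12.8% without chains of several mice and 13.2% without invariant NKT chains. The median TRAV14D-1_1 share of thymus cells, 3.68%, became 4.46% at 2 or more transcripts, 3.995% by distinct chains, 4.51% by transcripts and 4.24% with any CDR3 end. TRAV14-3 in the mouse-160A tumor, 18.5%, became 20.1% with multiplets, 23.2% at 2 or more transcripts, 25.8% by transcripts, 1.58% by distinct chains and 2.65% without chains of several mice, which leaves out the dominant chain. TRAV14-1 in the mouse-160C tumor, 10.3%, became 12.7% in paired cells, 14.1% at 2 or more transcripts, 16.4% by transcripts, 9.51% with second chains, 2.02% by distinct chains and 1.26% without chains of several mice. The median TRAJ number of TRAV14-1 went from 33 to 28 by cells and 37 without chains of several mice, that of TRAV14N-3_1 from 23 to 26 without those chains, and that of TRAV14D-1_1 from 22 to 24 without them, to 23 with multiplets, to 23 without cells matching a chain and its later-round barcodes in another table, and to between 22 and 23 with each sublibrary left out. Member names past 2-fold higher, 2, became 4 at 2 or more transcripts, 0 by distinct chains and 0 without chains of several mice, and those past 2-fold lower, 5, became 8, 0 and 1, and 10 by transcripts. Clonotypes in both tissues, 11, became 4 at 2 or more transcripts in each chain, and chains in several mice, 1262, became 444 at 2 or more transcripts. The median unrearranged share in the thymus, 1.91%, became 3.34% among cells with 1 transcript and 3.09% with second chains. In tumors, 0.506% became 0.406% with multiplets, 0.399% in paired cells, 0.948% among cells with 1 transcript and 0.628% with second chains. The cause of these moves was not tested. Leaving out each sublibrary kept the TRAV14-3 value between 18.03% and 19.1%, the TRAV14-1 value between 9.85% and 10.5% and the clonotypes in both tissues between 8 and 11. The removal of invariant NKT chains or of cells with matching later-round barcodes, and the settings of the unrearranged share and of chains in several mice, were chosen after seeing the data. Tissues of the same mouse were set side by side, but no fit with a replicate block was made because the labels form no groups and each tissue of a mouse has 1 table. With about 1 transcript per cell, a chain missed in a cell cannot be told from one that was not there.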
